A study of Mus musculus with 8 samples.

Results

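The genes of long noncoding RNAs (lncRNAs) held 2560 of the 56483 polyadenylation sites (APSs) that were counted in mouse gastrocnemius muscle, a fast limb muscle. They were taken as every row to which the deposited expression table gives the biotype lncRNA, and they belonged to 1667 genes. RefSeq (GRCm38.p6) gives 18 of these genes as protein coding and 5 as pseudogenes, and they were kept. The RNA came from male mice lacking either catalytic subunit of the AMP-activated protein kinase in the whole body. There were 2 AMPKα1 KO mice with 2 WT mice, and 2 AMPKα2 KO mice with 2 WT mice, with 1 library for each mouse. The sample labels give C57BL/6 for all mice, whereas the study's methods give 129S2/SvPas for the AMPKα1 KO mice. The methods give an age of about 6 weeks for mice without AMPKα1 and of about 8 weeks for those without AMPKα2, and none for the WT mice. Strain, age and library set therefore cannot be told apart from the model when AMPKα1 libraries are set beside AMPKα2 libraries.

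Libraries were made by WTTS-seq, a strand-specific method that reads the 3′ ends of polyadenylated RNA, and held 2311242 to 3549156 counted reads. Prkaa1, which is disrupted in AMPKα1 KO mice, had 0 and 82 reads in its KO libraries and 15 and 0 in its WT libraries. Prkaa2, targeted in the AMPKα2 model, had 40 and 71 reads in its KO libraries and 87 and 62 in its WT libraries. The deletions remove part of the catalytic domain, so reads at the 3′ end check neither label. All 10 skeletal muscle markers had a site, and together they took 48589 to 118991 CPM (counts scaled to a library total of 1e6). In AMPKα1 they were lower in KO (85027 and 78324 CPM) than in WT (118991 and 104277). The 5 slow fibre markers were higher in KO in both models, with 4021 and 2017 CPM against 1183 and 1181 in AMPKα1, and 1200 and 1953 against 587 and 1049 in AMPKα2. The part of these shifts in the KO and WT values of lncRNAs was not tested. The 4 fibroblast markers, which include collagen genes, took 9649 to 15928 CPM in AMPKα1 libraries and 1616 to 2236 in AMPKα2 libraries. The AMPKα1 KO replicates differed in adipocyte markers (577 and 2432 CPM, against 640 and 568 in WT). They also differed in macrophage markers (95.3 and 331 CPM, against 119 and 102 in WT). The part of these replicate differences in lncRNA values was not tested. In bulk tissue, fewer cells of a type and less RNA per cell cannot be told apart.

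A lncRNA is a transcript without a long open reading frame, and many are spliced and polyadenylated like messenger RNA. Some act as RNA, as Malat1 in nuclear speckles and Neat1 in paraspeckles do. Others matter mainly for what their introns or hairpins release. Gas5 and genes of the Snhg family carry small nucleolar RNAs (snoRNAs), which guide modification of ribosomal RNA, and Mir1a-1hg carries muscle microRNAs. Cleavage at a polyadenylation site usually follows the hexamer AATAAA or its variant ATTAAA at a short distance.

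The bases upstream of some sites with many reads are printed in 2 sets, which do not cover all kinds of 3′ end. Of 512 lncRNA sites with bases that were not at the end of a small RNA, 264 (51.6%) held neither hexamer. Among those not printed are the leading sites of Nctc1 (8493 reads) and Atcayos (4225 reads). The sequences below are 30 bases read from GENCODE transcripts on GRCm38, 5′ to 3′, with AATAAA or ATTAAA in capitals. They end at the site, or at the end of the annotated exon where the site lies up to 10 bases past it. The first set is shown because these are the leading sites of H19, Neat1, Prr33 and Malat1, and the gene end of Gas5, and all but the last sequence hold a hexamer. They are H19 (chr7:142575531-142575560, minus strand), Neat1 (chr19:5842308-5842337, minus strand), Prr33 (chr7:142491079-142491108, minus strand), the 3′ end of Gas5 (chr1:161038510-161038539, plus strand) and Malat1 (chr19:5801791-5801820, minus strand).
H19: tgggtccatcAATAAAtacagttacagtca
Neat1: ctttacagcaaAATAAAggtttgagattga
Prr33: tggagccatgcAATAAAtgtatgtatacga
Gas5 gene end: ttttaccATTAAAgtgtattataacatgaa
Malat1: acaggtagtaggaagccgaagaatagaaga

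The second set is shown because these sites lay within 10 bases of the annotated 3′ end of a small RNA inside the lncRNA gene, and none holds a hexamer. They are Snhg1 at the end of Snord22 (chr19:8725964-8725993, plus strand), Gas5 at the end of the snoRNA Gm22357 (chr1:161036112-161036141, plus strand), Gas5 at Snord80 (chr1:161037650-161037679, plus strand), Snhg12 at Snord99 (chr4:132310731-132310760, plus strand) and H19 at the microRNA precursor Mir675 (chr7:142577059-142577088, minus strand).
Snhg1 at Snord22: ttgttccagaaggaactgtctgagggatca
Gas5 at Gm22357: ttaaaccaccatgattataactgaggcaca
Gas5 at Snord80: atcatgtctttcgctcctatctgatgtatc
Snhg12 at Snord99: gatgagaaatgcggatatgggactgagacc
H19 at Mir675: aaccgctcagtccctgggtctggcatgaca
The letters ctga, the D box that closes many snoRNAs, stand near the end of the 4 snoRNA sequences. The H19 site lay 5 bases past the Mir675 hairpin, which RefSeq (GRCm38.p6) places at chr7:142577064-142577147.

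The share of all counted reads that fell on lncRNA sites was 1.66% and 1.85% in AMPKα1 KO, 1.61% and 1.72% in AMPKα1 WT, 7.66% and 5.79% in AMPKα2 KO, and 7.45% and 6.05% in AMPKα2 WT. All AMPKα2 libraries lay above all AMPKα1 libraries, whereas KO and WT overlapped within each model. The mean share was 1.76% ± 0.141 (SD, n = 2) in AMPKα1 KO against 1.67% ± 0.0791 in WT (exact two-sided permutation p = 0.667), and 6.72% ± 1.32 in AMPKα2 KO against 6.75% ± 0.985 in WT (exact permutation p = 1). With 2 libraries against 2, the smallest two-sided p that this test allows is 0.333.

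Gm36876, LOC108168339 and Gm30821 made up most of the gap between models. These 3 genes held 60.4% to 73.5% of lncRNA reads in AMPKα2 libraries and 0.0362% to 0.458% in AMPKα1 libraries. Without them, the lncRNA share was 1.61% to 1.85% in AMPKα1 and 1.91% to 2.29% in AMPKα2. Leaving out small RNA ends as well gave 1.603% to 1.85% in AMPKα1 and 1.06% to 1.37% in AMPKα2, which turned the order of the models. The 3 genes were chosen by total reads, and the small RNA ends after the reads had been seen. Both hold mainly AMPKα2 reads, so leaving them out lowers the AMPKα2 share by construction.

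**Figure D1:**
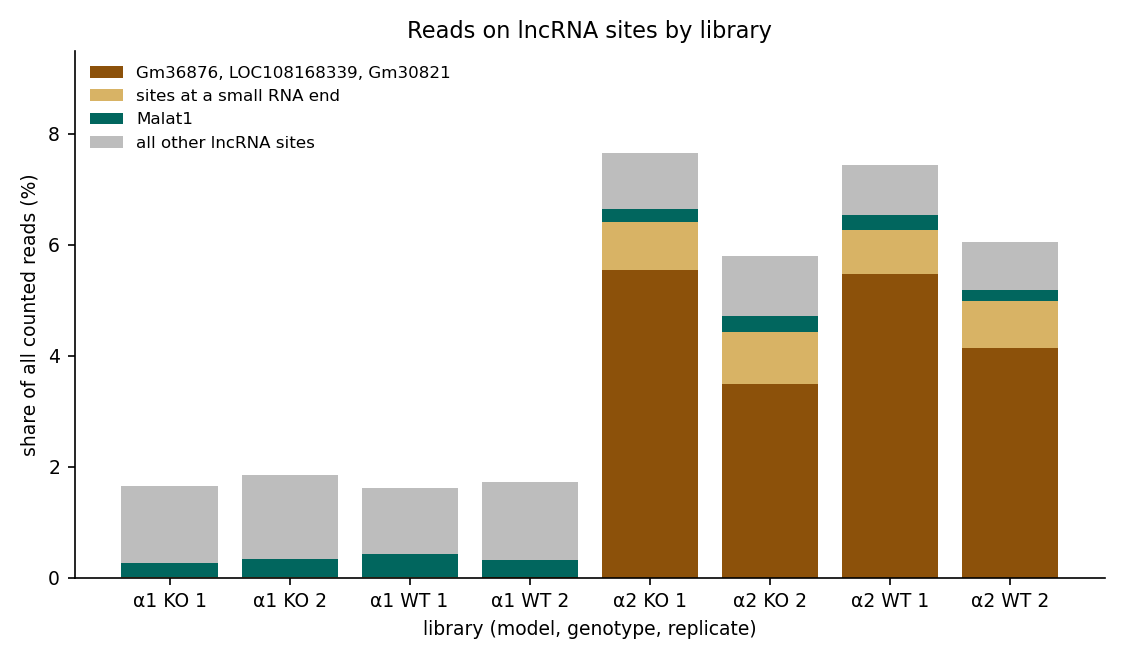
Share of all counted reads on lncRNA sites in each of the 8 libraries, stacked by Gm36876, LOC108168339 and Gm30821 together, sites at a small RNA end, Malat1, and all other lncRNA sites. AMPKα2 libraries reached 5.79% to 7.66%, and the 3 named genes took the largest part of each of these bars.

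By median reads, lncRNA sites were shallow. Their median total over the 8 libraries was 39 reads against 51 for sites of protein coding genes, and 61.4% of lncRNA sites had fewer than 50 reads against 48.9%. Among the sites with a read in a library, the median was 7 to 20 reads in AMPKα1 libraries and 3 to 4 in AMPKα2 libraries for lncRNAs. For protein coding genes it was 11 to 32 and 4 to 6. The lncRNA median was lower in 8 of 8 libraries, by 0.525 ± 0.131 on the log2 scale (SD, n = 8, exact two-sided sign-flip permutation p = 0.00781). Mean reads per site were lower for lncRNAs than for protein coding genes in AMPKα1 libraries (14.55 to 23.76 against 43.8 to 67.76). In AMPKα2 libraries the lncRNA mean was the higher one (58.61 to 103.3 against 26.55 to 39.24). Of the lncRNA genes, 1239 (74.3%) had fewer than 100 reads in all, and 51 had 1000 or more.

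Few genes carried most lncRNA reads, and mostly different ones in the 2 models. In AMPKα1, 33 genes made up 50% of lncRNA reads, and the 10 highest held 37.6%. In AMPKα2, 2 genes made up 50%, and the 10 highest held 86.0%. Of the 25 genes with most reads in each model, 5 (20% of each list) were shared, namely Gas5, H19, Malat1, Neat1 and Prr33. Libraries of the models also differed in TMM normalization factors computed over all 8 libraries, which ranged from 1.61 to 2.47 in AMPKα1 and from 0.374 to 0.539 in AMPKα2. Over the 9962 genes with at least 100 reads, the median log2 difference of AMPKα2 from AMPKα1 was -1.69 by library totals and 0.16 by TMM. By library totals, all AMPKα2 libraries lay above all AMPKα1 libraries for 13.7% of lncRNA genes (7.55% of all genes), and the reverse held for 18.4% (37.2%). By TMM these shares were 18.9% (19%) and 4.92% (7.36%). Levels in the models are therefore given side by side as reads.

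**Figure D2:**
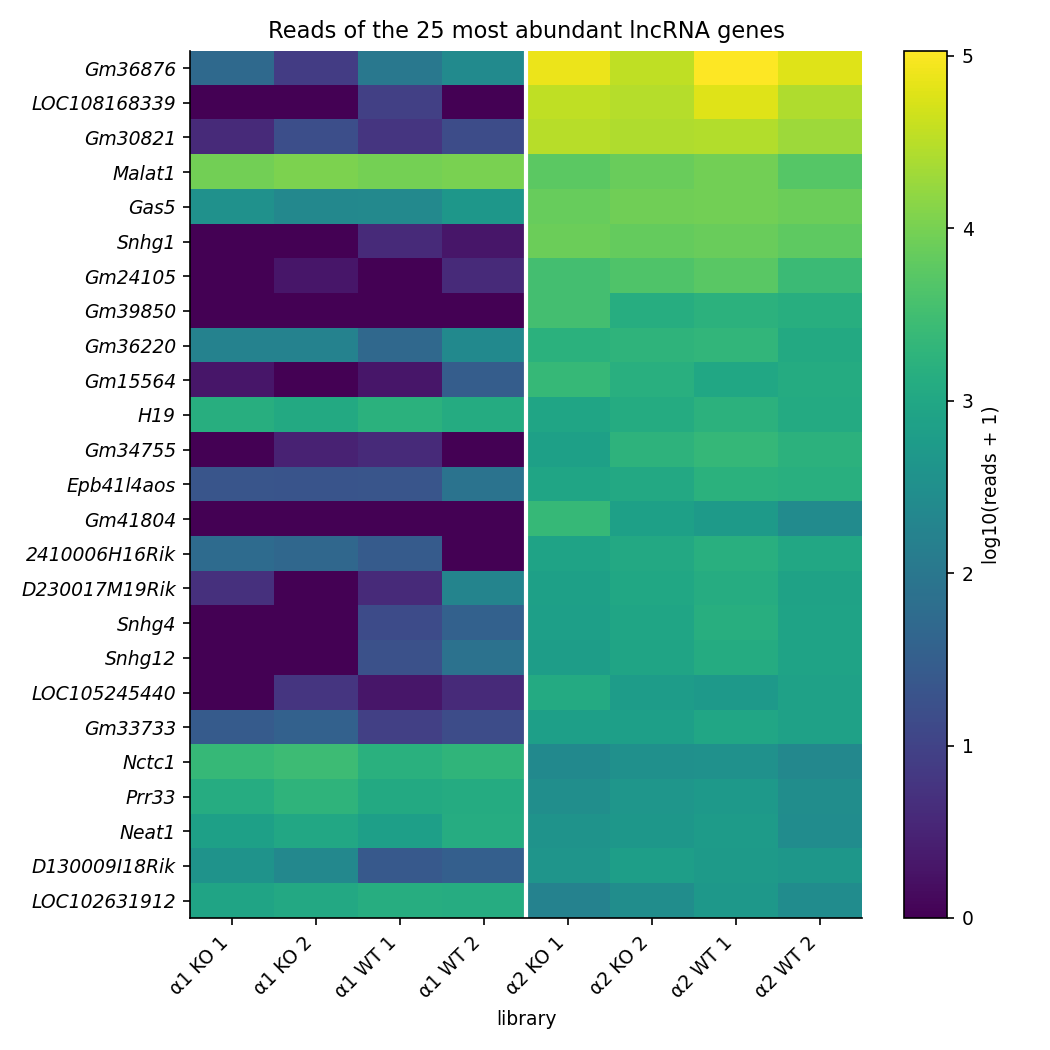
Reads of the 25 lncRNA genes with the highest mean TMM-scaled CPM over the 8 libraries, as log10(reads + 1), with a row for each gene and a column for each library. The ranking depends on this scaling, by which Gm15564 (6106 reads in all) ranked 10 and Nctc1 (9686) ranked 21. Genes such as Malat1, H19 and Neat1 had reads in every library, whereas Snhg1, Gm24105 and Gm39850 had 0 to 3 reads in each AMPKα1 library.

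The most abundant row, Gm36876, was a single site at chr11:109011988 on the strand opposite to its gene. It had 52 and 7 reads in AMPKα1 KO, 101 and 257 in AMPKα1 WT, 76054 and 35360 in AMPKα2 KO, and 106641 and 60070 in AMPKα2 WT. Its AMPKα2 KO and WT values overlapped (log2 fold change 0.06 ± 0.54 (SE), edgeR adjusted p = 0.984), and this value turned to -0.31 when scaled by library totals. LOC108168339, also a single site opposite to its gene (chr17:70963862), had 0, 0, 8 and 0 reads in the AMPKα1 libraries. In AMPKα2 it had 35075 and 29046 reads in KO against 60223 and 26657 in WT, which overlapped. The LOC108168339 site lies within the span of Gm26561, a lincRNA that GENCODE places on the strand of the site, whereas LOC108168339 lies on the other strand. For Gm36876 no GENCODE gene overlapped the site. Gm24105 (chr5:149247934), where GENCODE gives a small RNA gene of the same name both as microRNA and as miscellaneous RNA, had 0 to 3 reads in AMPKα1 libraries and 2629 to 5396 in AMPKα2 libraries.

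Malat1, the abundant nuclear lncRNA, was the lncRNA gene with most reads in AMPKα1. It had 8979 and 11058 reads in AMPKα1 KO and 9548 and 10381 in WT, and 5847 and 7404 reads in AMPKα2 KO and 9229 and 5134 in WT. The reads overlapped between KO and WT in both models, at unequal depth. Scaled by TMM, Malat1 had 2351 and 2912 CPM in AMPKα1 KO and 5567 and 2940 in WT, with KO below WT. In AMPKα2 it had 2902 and 2422 CPM in KO and 2386 and 2136 in WT, with KO above WT. The log2 fold change of KO over WT was -0.55 ± 0.38 in AMPKα1, from -0.86 to -0.10 when each library was left out, and 0.37 ± 0.29 in AMPKα2. Neither passed edgeR's test (adjusted p = 0.763 in both). Its main site at chr19:5801791 took 59117 reads and lay 881 bases after the annotated 5′ end, 6101 bases before the 3′ end. Of the 10 bases after this site, 6 were A. Malat1 sites nearer to the 3′ end were seen mainly in AMPKα2. The one at chr19:5797298 had 0, 0, 0 and 36 reads in AMPKα1 libraries, and 1497 and 1088 in AMPKα2 KO against 1537 and 974 in WT.

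Neat1, the scaffold of paraspeckles, is made as a short polyadenylated and a long form. Its 12 sites had 735 and 1029 reads in AMPKα1 KO, 680 and 1286 in AMPKα1 WT, 375 and 457 in AMPKα2 KO, and 578 and 280 in AMPKα2 WT. The site at chr19:5842308, which holds AATAAA and lies 3172 bases after the 5′ end, carried 4181 reads of the total. The site at the far end of the gene (chr19:5824711, 3 bases before it) had 0, 0, 3 and 4 reads in AMPKα1 libraries and 17 to 65 in AMPKα2 libraries. KO and WT values overlapped at both sites in AMPKα2. Over the whole gene, TMM-scaled Neat1 lay lower in KO in AMPKα1 (192 and 271 CPM against 397 and 364) and, narrowly, higher in AMPKα2 (186 and 149.5 CPM against 149.4 and 117), and neither difference passed the test.

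H19 and Nctc1 lie in the imprinted Igf2 domain, and Prr33 beside it on chromosome 7. H19 had 1408 and 1145 reads in AMPKα1 KO, 1619 and 1235 in AMPKα1 WT, 914 and 1229 in AMPKα2 KO, and 1671 and 1184 in AMPKα2 WT. Its gene-end site, chr7:142575531, had 1107 to 1530 reads in AMPKα1 libraries and 261 to 682 in AMPKα2 libraries. In AMPKα2 the remaining H19 reads were spread over sites inside the gene, such as chr7:142577549 with 174 and 191 reads in KO against 309 and 200 in WT. Nctc1 had 2296 and 2784 reads in AMPKα1 KO and 1551 and 1912 in AMPKα1 WT, and 240 and 331 in AMPKα2 KO and 352 and 220 in AMPKα2 WT. By reads AMPKα1 KO lay above WT for Nctc1, but scaled by TMM the means were 667 ± 93.3 CPM in KO and 723 ± 257 in WT (SD, n = 2 each), with no difference past the test (edgeR adjusted p = 0.999).

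snoRNA host genes showed the clearest contrast between sites. Of 26 such genes fixed as a list, 18 had a lncRNA site, and none of the 15 tested in each model passed the test of KO against WT. The 15 differed between models, as Snhg10 and Snhg14 were tested in AMPKα1 alone, and Snhg1 and Snhg17 in AMPKα2 alone. Their median log2 fold change was -0.96 in AMPKα1 (all genes -0.03) and -0.02 in AMPKα2 (all genes -0.01). Snhg15 set the AMPKα1 median, at -0.96 ± 3.14 (SE), from KO counts of 0 and 25 against WT counts of 25 and 0. With such counts, the median cannot show whether host genes shifted together. Gas5 had 347, 217, 231 and 450 reads in AMPKα1 libraries (KO, KO, WT, WT), of which 347, 217, 164 and 450 fell on its gene-end site at chr1:161038541. In AMPKα2 it had 7134 and 8570 reads in KO against 9113 and 7782 in WT, of which the gene-end site held 33 and 47 in KO and 92 and 42 in WT. The reads of Gas5 in AMPKα2 thus fell almost entirely on 7 sites at snoRNA ends.

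The Gas5 site at the end of Gm22357 (chr1:161036141) had 0 reads in each AMPKα1 library, 5023 and 5524 in AMPKα2 KO, and 5319 and 4580 in AMPKα2 WT. At Snord80 (chr1:161037679), Gas5 had 0 reads in each AMPKα1 library, 373 and 908 in AMPKα2 KO, and 1252 and 1032 in AMPKα2 WT. Snhg1 had sites at snoRNA ends alone. It had 0, 0, 3 and 1 reads in AMPKα1 libraries, 8020 and 6922 in AMPKα2 KO, and 7469 and 5957 in AMPKα2 WT. KO and WT overlapped for Snhg1 and at the Gm22357 site, and at Snord80 both KO values lay below both WT values without passing the test.

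In all, 43 lncRNA sites in 28 genes lay within 10 bases of a small RNA end on the same strand, a class defined after the reads had been seen. The small RNA was a snoRNA at 32 sites, a small nuclear RNA at 6 and another type at 5, and the median site lay 1 base past the end. They were 1.68% of lncRNA sites, against 0.286% of sites of protein coding genes. They held 0.226% to 0.534% of lncRNA reads in AMPKα1 libraries and 10.7% to 16.0% in AMPKα2 libraries. All 43 had a read in every AMPKα2 library, and 35 (81.4%) had 0 reads in every AMPKα1 library, against 11.4% of the other 2517 lncRNA sites. Rows have at least 16 reads over the 8 libraries, so sites at 0 in AMPKα1 entered through their AMPKα2 reads alone. Their presence in AMPKα2 is thus partly fixed by this filter. A count of 0 in a library allows up to 3 reads, which is 0.845 to 1.30 CPM by library totals, and such limits cover counting error only.

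Some host genes had both kinds of site. Snhg12 had 93 reads at its other site in AMPKα1 against 0 at its 2 snoRNA ends, and 19 against 3513 in AMPKα2. For 2410006H16Rik, the host of Snord49a, these values were 129 against 0 in AMPKα1 and 70 against 4379 in AMPKα2. H19 kept most reads elsewhere, with 5385 against 22 at the Mir675 end in AMPKα1 and 4268 against 730 in AMPKα2. Of the ends with reads in AMPKα1, Gm36220 at Snord104 had the most, with 167 and 172 reads in AMPKα1 KO and 50 and 245 in AMPKα1 WT, and 1151 to 2043 in AMPKα2 libraries. Zeb2os at Gm27645 went the other way, with 124 reads in AMPKα1 and 10 in AMPKα2, and Gm41213 had 29 and 35.

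Small RNA ends were also set apart across the whole table. Sites with at most 3 reads in every AMPKα1 library and at least 50 in every AMPKα2 library were 0.818% of all 56483 sites and 1.72% of lncRNA sites. Among the 329 sites of any gene at a small RNA end they were 41%, and among the 43 of lncRNA genes 48.8%. Of the 42 lncRNA sites at a small RNA end tested in AMPKα2, 20 had a positive and 22 a negative log2 fold change of KO over WT, and none passed the test. The part of strain, age or library preparation in this contrast was not tested.

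**Figure D3:**
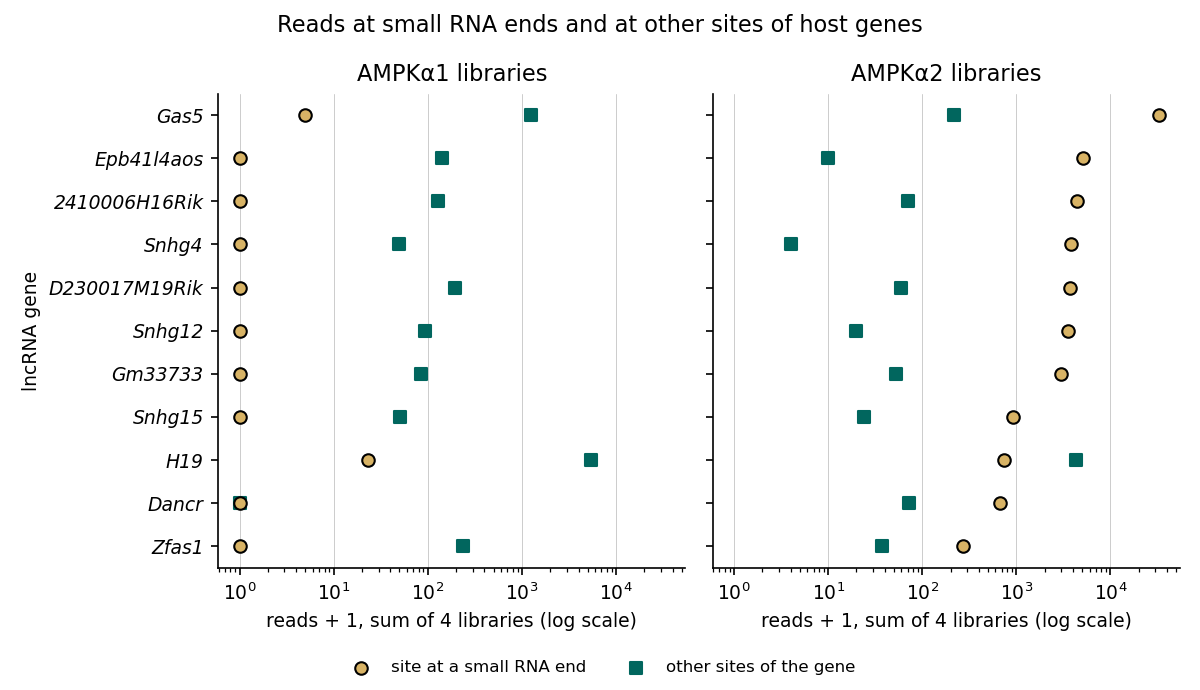
Reads summed over 4 libraries (plus 1, log scale) at sites at a small RNA end (circles) and at all other sites (squares) of host genes that have both kinds of site and at least 200 reads at small RNA ends in AMPKα2. In AMPKα1 the squares lay to the right of the circles for every gene but Dancr, which had 0 reads at both, and in AMPKα2 the circles lay to the right for every gene but H19.

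Many lncRNA sites did not lie on their gene's strand. Of the 2560 sites, 1046 (40.9%) were on the strand opposite to the gene they were assigned to, against 8.27% for sites of protein coding genes. Of the 1046, 487 (46.6%) lay within a protein coding gene on their own strand, against 9.51% of the 1514 lncRNA sites on the gene's strand. Opposite sites had a median of 37 reads in total and sites on the gene's strand 40. Sites within a protein coding gene on their own strand cannot be told apart from 3′ ends of that gene by these counts.

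A GENCODE model was matched for 1319 of the lncRNA sites. Of these, 24.1% lay in an exon, 29.3% in an intron, 9.17% within 2000 bases downstream, 33.4% on the opposite strand and 3.94% elsewhere. For protein coding genes the shares were 43.4%, 39.9%, 7.76%, 8.19% and 0.804%. With at least 50 reads in total, the exon share of lncRNA sites was 35.1%.

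Upstream bases could be read for 555 lncRNA sites. AATAAA was in the last 40 bases of 38.9% of the 512 lncRNA sites away from small RNA ends, and ATTAAA without it in 9.57%. For protein coding genes these shares were 38.3% and 10.5% of 23640 sites. Of the 43 lncRNA sites at small RNA ends, 0 held AATAAA and 1 held ATTAAA. Only the transcribed strand was searched, and a window without these letters says nothing of other signals. In the 10 bases after the site, 6 or more were A at 43.9% of 303 lncRNA sites away from small RNA ends and at 37.9% of 14692 protein coding sites.

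Of the lncRNA genes, 1226 had 1 site and 441 had more, and 10 genes had 10 or more. The 5 genes with most sites were Mir1a-1hg (18), Lncpint (17), Dleu2 (16), Kcnq1ot1 (15) and 3110039I08Rik (14). Among the 91 lncRNA genes with more than 1 site and at least 50 reads in each model, 34 (37.4%) had a different leading site in the 2 models, against 35.4% of 4667 protein coding genes.

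KO and WT were compared within each model to ask which lncRNA 3′ ends differ with genotype. Labels and methods differ on the strain of the AMPKα1 KO mice, and no age is given for WT mice. A difference in strain or age between KO and WT therefore cannot be told apart from loss of the subunit. Counts were tested by edgeR's quasi-likelihood test over all sites with at least 16 reads in the 4 libraries, with a Benjamini-Hochberg adjusted p under 0.1 as threshold. In AMPKα1, none of 1982 lncRNA sites passed, where 0.00454% of all 44024 sites did. At an unadjusted p under 0.05, 34 lncRNA sites were found (1.72%, against 3.07% of all sites), 4 higher and 30 lower in KO. Over all sites the split was 304 higher and 1049 lower. It depended on the scaling, since library totals gave 18 higher and 20 lower lncRNA sites, and 767 higher and 640 lower over all sites. Without WT replicate 1 it was 8 higher and 4 lower for lncRNA sites. DESeq2 called 4 lncRNA sites, all lower, where it called 0.442% of all sites (0.0871% higher and 0.354% lower). Summed per gene, none of 1340 lncRNA genes passed edgeR's test, and 26 had an unadjusted p under 0.05 (1.94%, against 4.21% of all genes). DESeq2 called 6 lncRNA genes, 1 higher and 5 lower, where it called 0.847% of all genes (0.198% higher and 0.649% lower).

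The AMPKα1 libraries gave unequal replicates. Among 354 lncRNA sites that reached 50 reads in a library of AMPKα1 KO, 170 (48.0%) were at 0 in its replicate, against 30.4% over all sites. For lncRNA sites of AMPKα1 WT the share was 12.4%, and in the AMPKα2 model 1.75% (KO) and 2.40% (WT). Over all sites these shares were 5.09%, 0.293% and 0.318%. The biological coefficient of variation over all sites was 156% in AMPKα1 and 38.8% in AMPKα2. Linc-md1, a muscle lncRNA that hosts microRNAs of the myogenic program, is an example, with 227 and 18 reads in AMPKα1 KO and 6 and 0 in WT. Its log2 fold change was 4.48 ± 2.09 (edgeR adjusted p = 0.763), and from 1.63 to 9.94 when each library was left out.

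The AMPKα1 sites with the lowest p among those lower in KO began with LOC102643247 (chr4:99932323), which lies within Pgm1 on the same strand. It had 0 and 1 reads in KO against 119 and 190 in WT (edgeR adjusted p = 0.168, DESeq2 adjusted p = 0.00248). Next, 2310040G24Rik (chr6:86483376) was counted 269 and 403 times in KO against 920 and 677 in WT, a log2 fold change of -2.04 ± 0.57 (edgeR adjusted p = 0.543), and from -2.57 to -1.13 when each library was left out. 0610012G03Rik (chr16:31947771) had 213 and 305 reads in KO against 569 and 553 in WT. Gm36876 also belongs here, at 7.73 ± 8.32 CPM in KO and 65.8 ± 9.83 in WT (SD, n = 2 each; edgeR adjusted p = 0.543). KO lay below WT without overlap at these 4 sites, which follows in part from picking them by low p. The other sites that DESeq2 called lower had 0 reads in both KO libraries, and WT had 36 and 49 at Gm42002 (chr5:113606777), 32 and 69 at Gm12300 (chr11:67231936), and 20 and 83 at Gm33217 (chr13:83352876).

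Higher in AMPKα1 KO, D130009I18Rik (chr14:104715988) had the lowest p, with 374 and 213 reads in KO against 22 and 28 in WT. Its log2 fold change was 2.89 at the site. Summed per gene it was 2.91 ± 0.65 (edgeR adjusted p = 0.763, DESeq2 adjusted p = 0.0778). LOC108167926 (chr11:100935981) had 115 and 120 reads in KO against 3 and 11 in WT, and it lies within Stat3 on the same strand as the site. Gm30067 (chr2:39111580, within Scai) and Bcas3os1 (chr11:85704166, within Bcas3), both opposite to their genes, were at 0 in WT. In KO, Gm30067 had 29 and 64 reads and Bcas3os1 49 and 39. At these 4 sites KO lay above WT without overlap, which again follows in part from the choice by low p. The Linc-md1 site at chr1:20670784 also belongs to the 5 with the lowest p. There, 102 reads came from KO replicate 1, while its replicate and the WT libraries were at 0, so the genotypes overlapped. None of the 5 sites passed edgeR's test.

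In AMPKα2, 747 lncRNA sites were tested, and 1 passed, where 0.056% of all 23218 sites did (0.0258% higher and 0.0301% lower). It was Gm33135 (chrX:8207263), with 30 and 54 reads in KO, 0 and 0 in WT, and 0 in every AMPKα1 library (edgeR adjusted p = 0.0739). DESeq2 called 1 other site, Gm41804 (chr19:8252228, opposite to its gene), where it called 0.192% of all sites (0.162% higher and 0.03% lower). Gm41804 was counted 2293 and 714 times in KO against 554 and 260 in WT, a log2 fold change of 2.45 (edgeR adjusted p = 0.603, DESeq2 adjusted p = 0.0102). Without KO replicate 1 its log2 fold change was 0.9. At an unadjusted p under 0.05, 60 lncRNA sites were found by edgeR (8.03%, against 7.6% of all sites), 41 higher and 19 lower. All sites together were split in the same direction, with 1188 higher and 577 lower.

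Summed per gene, 4 of 601 lncRNA genes were higher in AMPKα2 KO and 0 lower, which is 0.666%, where 0.682% of all 10552 genes were called (0.37% higher and 0.313% lower). At an unadjusted p under 0.05 there were 67 lncRNA genes (11.1%, against 8.55% of all genes). Scaled by library totals, 17 lncRNA genes were called higher and 10 lower, where 82 of all genes were called higher and 103 lower. With WT replicate 1 left out, 1 WT library remains, and most calls were then lower in KO, among lncRNAs and over all genes and sites. DESeq2 called 3 of the 4, where it called 0.562% of all genes (0.39% higher and 0.171% lower). The largest in reads was Mir1a-1hg on chromosome 2, the host of miR-1a-1. The gene had 251 and 339 reads in KO against 232 and 133 in WT. Scaled by TMM, KO reached 118 ± 9.67 CPM and WT 57.7 ± 3.29 CPM (SD, n = 2 each), without overlap. The log2 fold change was 1.16 ± 0.24 (SE, edgeR adjusted p = 0.0912, DESeq2 adjusted p = 0.0572). The call was lost with library totals (adjusted p = 0.569), with all 8 libraries (1), and without KO replicate 1 (0.268), WT replicate 1 (0.644) or WT replicate 2 (0.356), at log2 fold changes of 0.95 to 1.21.

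Of the 15 Mir1a-1hg sites tested one by one in AMPKα2, 14 had a positive log2 fold change, from -0.11 to 1.77 over the 15, and none passed alone. Sites of 1 gene share its RNA and are not replicates. In AMPKα1 the same gene had 591 and 515 reads in KO against 625 and 795 in WT, and 77.2% of its reads fell on chr2:180398735, against 23.8% in AMPKα2. Its AMPKα1 log2 fold change was -0.88 ± 0.42 (edgeR adjusted p = 0.763). The difference between the models was not tested for whole genes. Over sites, 4 lay before and 14 after the mature miR-1a-1-5p (chr2:180389057-180389079, plus strand, RefSeq GRCm38.p6), the 5p arm of the hairpin, which serves here as the landmark and is printed with its seed (bases 2 to 8) in capitals.
miR-1a-1-5p: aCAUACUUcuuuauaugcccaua

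**Figure D4:**
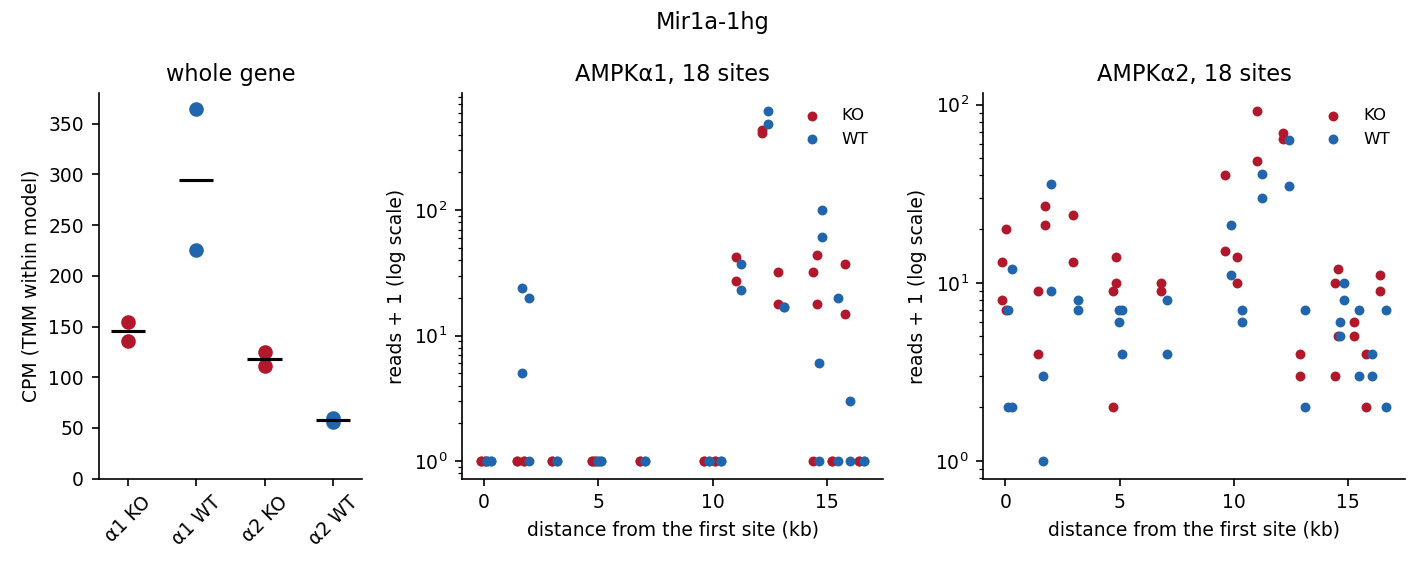
Mir1a-1hg in each library. The left panel shows TMM-scaled CPM for the whole gene (points are libraries, lines are means of 2), and the other panels show reads plus 1 on a log scale at its 18 sites against distance from the first site in kb, with KO in red and WT in blue. In AMPKα2 the KO libraries lay above the WT libraries for the whole gene, and in AMPKα1 one site held 77.2% of reads.

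The other 3 genes called higher in AMPKα2 KO were rare and had 0 reads in every AMPKα1 library. Gm33135 had an edgeR adjusted p of 0.00163 as a gene. AI450353 (chr11:83294634) had 15 and 31 reads in KO against 0 and 1 in WT (edgeR adjusted p = 0.0162, DESeq2 adjusted p = 0.026). Gm36568 (chr12:17220447, opposite to its gene) had 15 and 16 reads in KO against 3 and 2 in WT, a log2 fold change of 3.03 ± 0.63 (edgeR adjusted p = 0.0912). KO lay above WT without overlap for all 3, as is likely for genes picked by the test, at counts near the limit of 3 reads in WT.

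Other AMPKα2 sites with the lowest p did not pass the test. Among those higher in KO, a Dleu2 intron site (chr14:61663090) had 7 and 15 reads in KO against 1 and 1 in WT, and Gm30504 (chr8:45151238) had 6 and 19 in KO and 0 and 1 in WT. Among those lower, Gm14342 (chr2:180886847, opposite to its gene) had the most reads, 69 and 144 in KO against 472 and 197 in WT (log2 fold change -1.32). The other 4, Gm41414, Gm12300, Gm31814 and Gm34365, had 0 or 1 reads in KO and 7 to 22 in WT. Lncpint, a lncRNA induced by p53 signalling, was counted 48 and 78 times in KO against 54 and 27 in WT, and its log2 fold change of 1.09 ± 0.30 did not pass (edgeR adjusted p = 0.257).

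**Figure D5:**
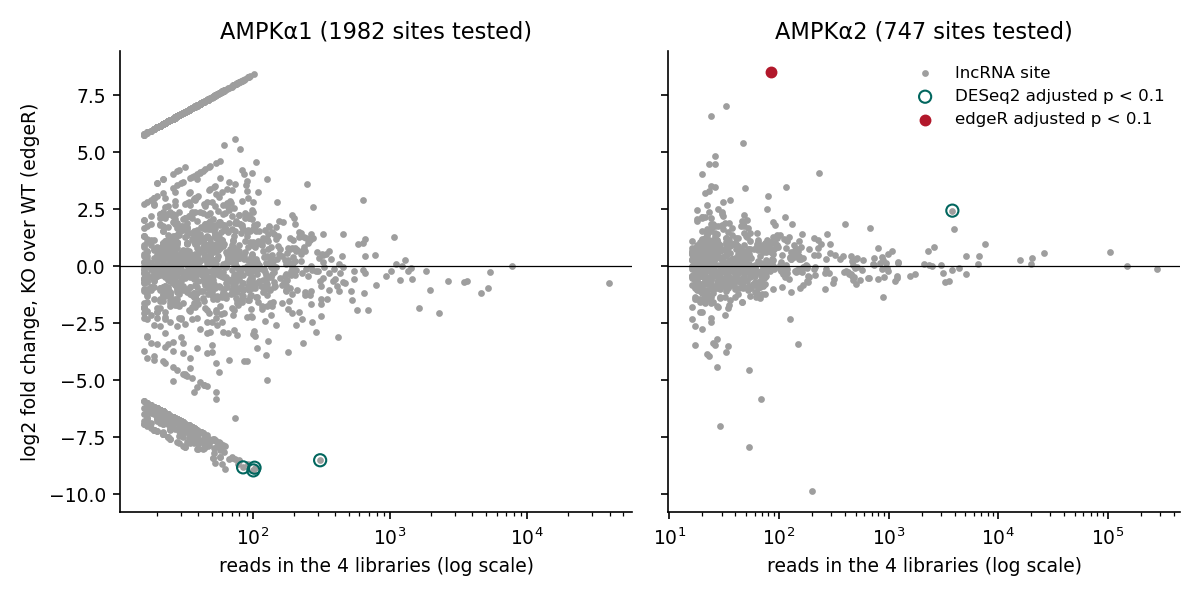
log2 fold change of KO over WT (edgeR) against reads in the 4 libraries (log scale) for the lncRNA sites tested in each model, 1982 in AMPKα1 and 747 in AMPKα2. Red points passed edgeR's test and circles DESeq2's test at an adjusted p under 0.1, and the diagonal bands in AMPKα1 are sites at or near 0 reads in both libraries of a genotype.

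From the other fixed lists, few members were measured. Of 12 imprinted lncRNAs, 6 had a site, with H19 and Kcnq1ot1 the most abundant. Kcnq1ot1, the antisense transcript of an imprinted domain, had 134 and 241 reads in AMPKα1 KO and 97 and 191 in WT, and 56 and 51 in AMPKα2 KO and 39 and 60 in WT. Of 17 nuclear and general lncRNAs 8 had a site, of 21 microRNA hosts 8, of 10 micropeptide loci 2, and of 4 X inactivation genes 1. Among microRNA hosts, Dleu2 had 328 and 407 reads in AMPKα1 KO and 116 and 222 in WT (adjusted p = 0.763), and 28 to 78 in AMPKα2 libraries. The micropeptide locus 1810058I24Rik had 230 to 408 reads in AMPKα1 libraries and 50 to 98 in AMPKα2 libraries. Scaled by TMM, its KO and WT values overlapped in both models. Jpx, the X inactivation gene with a site, had 34 reads in 1 AMPKα1 WT library and 0 or 1 elsewhere. Within these lists 0 genes passed edgeR's test in AMPKα1, and in AMPKα2 Mir1a-1hg alone did.

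Whether the KO effect depends on the model was asked with an interaction term over all 8 libraries. Each site was given 1 spread for both models, although the biological coefficient of variation was 156% in AMPKα1 and 38.8% in AMPKα2. By edgeR 1 of 2560 lncRNA sites passed, where 0.143% of all 56483 sites did, and 141 had an unadjusted p under 0.05 (5.51%, against 6.96% of all sites). It was LOC102643247, with 0 and 1 reads in AMPKα1 KO and 119 and 190 in WT, and 16 and 25 in AMPKα2 KO and 49 and 18 in WT. The interaction was 8.02 ± 1.25 on the log2 scale (SE, edgeR adjusted p = 0.0207, DESeq2 adjusted p = 0.0104). DESeq2, which called 0.375% of all sites, called 1 more, Gm15564 (chr16:35981652), which lies opposite to its gene within Kpna1. Its reads were 1 and 0 in AMPKα1 KO, 1 and 29 in AMPKα1 WT, 1834 and 996 in AMPKα2 KO, and 415 and 704 in AMPKα2 WT (edgeR adjusted p = 0.311, DESeq2 adjusted p = 0.0552).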

How the data were processed

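The deposited table holds raw counts of reads per APS, whole numbers without normalization. According to the study's methods, the authors trimmed leading Ts, mapped reads with TMAP, clustered read ends and assigned sites with Cuffcompare; per the labels the build was GRCm38.p5. Rows have at least 16 reads over the 8 libraries. KO and WT were compared within models in edgeR 4.0.16 (R 4.3.3, limma 3.58.1; TMM, robust quasi-likelihood fit, at least 16 reads over 4 libraries, adjusted p under 0.1), with DESeq2 1.42.0 as alternative; the fits were tested on simulated data. Standard errors derive from the F statistic. Locations and bases came from GENCODE M21, and 1545 of 1667 genes matched RefSeq (GRCm38.p6). Named lncRNAs were the 25 genes with the highest mean TMM-scaled CPM over the 8 libraries and the 5 genes with most sites. Others were the 5 sites with the lowest p per model and direction, called sites, and fixed lists. Members and lists were chosen with earlier results of these data known. P-values measure the spread between these mice alone. Tables, exact permutation tests and plots were made in Python 3.11.15, with pandas 2.3.3 for tables, scipy 1.17.1 and numpy 2.4.6 for tests, and matplotlib 3.10.9 for plots.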

Additional observations from a re-analysis of the deposited data

Results flagged for a closer look

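The KO effect differed between the models at the LOC102643247 site in edgeR's interaction test, by 8.02 on the log2 scale. That test pools the spread of both models, and within AMPKα1 the site did not pass edgeR's test (adjusted p = 0.168). The part of this pooling in the call was not tested. At the Gm15564 site the KO effect differed in DESeq2's test alone, by 6.80 on the log2 scale, with 0 or 1 reads in 3 of 4 AMPKα1 libraries.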

How the results depend on the processing

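Counts of calls moved with the processing, and the causes were not tested. AMPKα1 lncRNA sites called went from 0 to 4 with DESeq2, 1 with library totals, 1 with at least 1 read, and 43 with all 8 libraries (2 higher, 41 lower). They ranged from 0 to 2 when each library was left out. AMPKα1 lncRNA genes went from 0 to 6 with DESeq2 and 8 with all 8 libraries, and stayed at 0 to 0 without any 1 library. AMPKα2 lncRNA sites went from 1 to 2 with library totals, 26 with at least 1 read, and 0 with at least 50 reads, all 8 libraries or an adjusted p under 0.05. Leaving out a library gave 0 to 8. AMPKα2 lncRNA genes went from 4 to 27 with library totals (17 higher, 10 lower), 46 with at least 1 read, 2 with at least 50 reads, 0 with all 8 libraries and 2 at an adjusted p under 0.05, and 4 to 10 without 1 library. Calls over all sites or genes moved as well. With all 8 libraries, 227 AMPKα1 sites were called higher and 1337 lower of 44024 tested. With at least 1 read, 425 AMPKα2 sites were called higher and 132 lower of 50017, and 260 genes higher and 137 lower of 14598. With library totals, 82 AMPKα2 genes were called higher and 103 lower of 10552. Without AMPKα2 WT replicate 1 most calls were lower in KO, among lncRNAs and over all genes and sites. Sites with an interaction went from 1 to 0 with at least 50 reads, 2 with DESeq2, and 0 to 29 without 1 library.

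Same-numbered mice did not deviate together over sites (correlations 0.007 and 0.027). With 1 difference per genotype and many shallow sites, these values cannot show whether the numbers pair mice. With a replicate block, AMPKα2 gave 28 sites and 9 genes, the interaction 0 sites, and AMPKα1 0 and 0. Mir1a-1hg then had an adjusted p of 0.13. It also missed the threshold with library totals (0.569), with all 8 libraries (1), without AMPKα2 KO replicate 1 (0.268), WT replicate 1 (0.644) or WT replicate 2 (0.356), at log2 fold changes of 0.95 to 1.21 over these settings. The Gm33135 gene call was lost with all 8 libraries alone (0.748). AI450353 was lost without KO replicate 2 (0.113) or WT replicate 1 (0.17), and Gm36568 without any 1 library (0.136 to 0.6). LOC102643247 lost its interaction without any 1 AMPKα2 library (0.193 to 0.572), with at least 50 reads (0.118) and with the block (0.16).

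The share of reads on lncRNA sites, KO minus WT, changed sign in AMPKα1 on the gene strand (-0.0208 percentage points), and ranged from -0.0118 to 0.188 without 1 library. In AMPKα2 it was 0.258 without the 3 genes, 0.472 on the gene strand, 0.184 without small RNA ends as well (added after seeing the data), and -0.96 to 0.904 without 1 library. Means over all sites gave a lncRNA difference from protein coding sites of -0.144 (exact permutation p = 0.742). This value averages opposite directions, with lower lncRNA means in AMPKα1 libraries and higher ones in AMPKα2 libraries. For medians, leaving out 1 library gave -0.554 to -0.503. Location shares moved with at least 50 reads (exon 35.1%, intron 22.5%, downstream 11.9%, opposite 28.0%, elsewhere 2.50%), with 1 site per gene (21.2%, 25.2% and opposite 38.8%) and with 1 kb downstream (7.13%, elsewhere 5.99%). A window of 25 bases gave 47 small RNA ends.

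With library totals, log2 fold changes turned for Prr33 in AMPKα1 (0.16), and for H19 (-0.18), Gm36876 (-0.31) and LOC108168339 (-0.14) in AMPKα2, and with the block for Gm36876 (-0.20). Leaving out 1 library turned some directions. The ranges were -0.22 to 0.36 for Nctc1, -0.44 to 0.27 for Prr33, -0.05 to 0.85 for Lncpint and -1.27 to 0.00 for H19 in AMPKα1, and -0.11 to 0.14 for H19, -1.09 to 0.69 for Gm36876 and -0.40 to 0.56 for LOC108168339 in AMPKα2. Of the lncRNA sites, 61.4% had fewer than 50 reads over 8 libraries, and the part of depth in the calls was not tested.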
